A study of Mus musculus with 66 samples.

Results

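The effect of deleting the dopamine D2 receptor from indirect-pathway neurons on the nucleus accumbens (NAcc) transcriptome was examined in saline-treated mice during the light hours. Of the 66 libraries of the series, 12 entered the comparison. These were 6 libraries labelled iMSN-D2RKO and 6 labelled WT, all from mice given saline at ZT3, with 3 of each genotype collected at ZT7 and 3 at ZT11 (ZT, zeitgeber time, counts hours from lights on). Libraries of ZT3, which is also in the light, were left out, so light hours here stands for ZT7 and ZT11. Time point was a factor in the fit. Of the 24138 gene entries of the deposited table, 13880 reached 1 FPKM (fragments scaled to transcript length and to library depth) in at least 1 of the 12 libraries and were tested. All mice were males of C57BL/6J background (C57BL/6 in the labels) aged 3 to 5 months. In iMSN-D2RKO mice both Drd2 alleles are floxed and Cre is driven by the promoter of the D1 receptor gene, which is active in the precursors of indirect-pathway neurons. Whether the WT mice carried floxed alleles or Cre is not given in the sources used here. The study collected the tissue as punches of ventral striatum, and whether a library holds 1 animal or a pool is not stated in the sources used here. The p-values therefore measure the spread between these libraries.

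Medium spiny neurons (MSNs) are the GABAergic projection neurons of the striatum. Neurons of the direct pathway carry the stimulatory D1 receptor and make dynorphin, while those of the indirect pathway (iMSNs) carry the inhibitory D2 receptor, the adenosine A2a receptor and enkephalin. The D2 receptor couples to Gi proteins and restrains cAMP signalling, and activity or cAMP in MSNs induces immediate early genes such as Fos, Arc and Nr4a1. Markers of MSNs were abundant in all 12 libraries, where the 14 shared MSN markers summed to between 3497 and 8084 FPKM.

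One library stood apart before any comparison of genotypes. Replicate 1 of the ZT7 libraries labelled iMSN-D2RKO had a summed FPKM of 690048, against 371897 to 410697 in the other 11. It scored 87.9 on the first principal component, which held 56.9% of the variance over 9445 genes, and the other 11 scored from -13.2 to -0.52. Its values were raised for short transcripts and lowered for long ones. The median log2 deviation from the mean of the other libraries was 1.05 over 396 genes with longest transcripts under 1 kb and -0.62 over 2071 genes with transcripts over 5 kb. Fth1, the ferritin heavy chain, reached 16842 FPKM there against a mean of 2623 in the others. The lowest values of rarely detected genes put its depth at about 0.371 of the median library of the series, and the 12 libraries ran from 0.371 to 1.24. Results that rest on this library are therefore also given without it, and the calls also with library weights, which gave it a weight of 0.037 against 0.479 to 2.91 for the others.

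**Figure D1:**
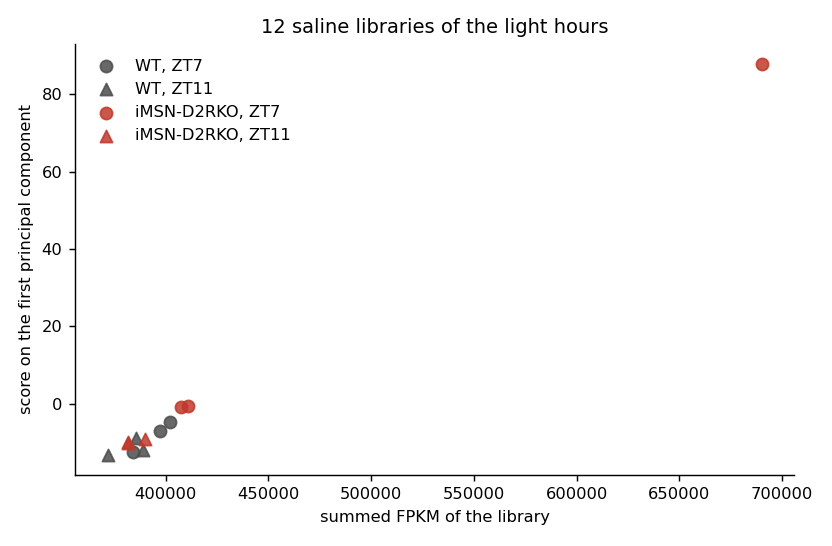
Summed FPKM (x axis) and score on the first principal component of log2(FPKM + 1) (y axis) for the 12 saline libraries; colour gives the genotype label and shape the time point. Replicate 1 of iMSN-D2RKO at ZT7 lies at 690048 FPKM and a score of 87.9, and the other 11 libraries lie together between 371897 and 410697 FPKM.

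Drd2, the targeted gene (mouse chromosome 9, 49340360 to 49408177, GRCm38), overlapped between the genotypes. At ZT7 it was listed at 118, 109 and 104 FPKM in WT libraries and at 375, 103 and 157 FPKM in libraries labelled iMSN-D2RKO. At ZT11 the WT values were 129, 149 and 99.95 FPKM and the iMSN-D2RKO values 103, 101 and 96.8 FPKM. The median was 114 FPKM in WT and 103 FPKM in libraries labelled iMSN-D2RKO, while the mean log2 difference was 0.21 (exact permutation test within time points, two-sided, p = 0.68, smallest possible p = 0.005), and it was -0.05 without the set-apart library, which held the highest value. The deposited value sums over the whole gene and does not resolve the deleted part, so it does not check the genotype labels, and the libraries are called by their labels throughout. Over the whole series, Drd2 ran from 78.0 to 375 FPKM (median 112) in the 33 libraries labelled iMSN-D2RKO and from 99.1 to 304 FPKM (median 129.5) in the 33 WT libraries.

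No gene passed an adjusted p of 0.05 between the genotypes when all 12 libraries entered with equal weight (0% of 13880, limma), and 778 genes had an unadjusted p below 0.05. Of these, 466 (3.36% of genes tested) were higher and 312 (2.25%) lower in libraries labelled iMSN-D2RKO. The count differed without the set-apart library, where 5 of 13702 genes passed (0.0365%), namely Snx31, Nptx2 and Shisa8, which were higher, and Otof and C920006O11Rik, which were lower. With library weights 15 of 13880 genes passed (0.108%), 11 higher and 4 lower, and those 15 included the same 5. In 43 genes (0.31%) all 6 libraries labelled iMSN-D2RKO lay above all 6 WT libraries, and in 21 (0.151%) all lay below. Of the 15 genes, 11 were separated in this way. They were chosen here for their small p-values, so the values that follow describe them, and all adjusted p-values are from limma over all genes tested.

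The largest separation was in Snx31, a sorting nexin gene of the endosomal trafficking family. Its level in WT libraries was 0.0934 FPKM at the lowest, 0.177 at the median and 0.225 at the highest, and in libraries labelled iMSN-D2RKO 0.839, 1.12 and 2.17 FPKM. Every iMSN-D2RKO value lay above every WT value, although the gene was near the detection limit in WT tissue. The log2 difference was 0.95 ± 0.12 (SE) on the log2(FPKM + 1) scale, with an adjusted p of 0.0673 for 12 libraries, 0.0139 without the set-apart library and 0.00208 with library weights. Because 1 was added before taking logs, this understates the change of so low a gene, whose mean was 0.164 FPKM in 6 WT and 1.28 FPKM in 6 iMSN-D2RKO libraries.

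Nptx2, Shisa8 and Otof encode proteins that act at synapses or in vesicle release. Nptx2, an activity-induced secreted pentraxin that gathers AMPA receptors at excitatory synapses, was listed at 14.3 to 18.9 FPKM in WT (median 17.6) and at 25.1 to 35.2 FPKM in iMSN-D2RKO libraries (median 26.95). The genotypes did not overlap, and the log2 difference was nearly the same at ZT7 (0.68) and ZT11 (0.66). The adjusted p was 0.0673 for 12 libraries, 0.0241 without the set-apart library and 0.00435 with library weights. Shisa8, an auxiliary protein of AMPA receptors, was at 4.00, 5.30 and 6.63 FPKM (lowest, median, highest) in WT and at 8.01, 10.9 and 22.3 FPKM in iMSN-D2RKO libraries. Its highest value was that of the set-apart library, and without it the remaining 5 values still lay above WT, with a log2 difference of 0.85 ± 0.12 and an adjusted p of 0.0453. Otof, which encodes otoferlin, a calcium sensor of vesicle release best known from inner hair cells, moved the other way. It was at 5.35 to 6.63 FPKM in WT (median 5.54) and at 2.86 to 4.28 FPKM in iMSN-D2RKO libraries (median 3.52), again without overlap. The log2 difference of Otof was -0.58 ± 0.09 at an adjusted p of 0.141, -0.62 ± 0.08 at 0.0324 without the set-apart library, and -0.54 ± 0.07 at 0.00819 with library weights.

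Nr4a1, an orphan nuclear receptor and immediate early gene, was at 17.3 to 30.5 FPKM in WT (median 23.35) and at 38.0 to 71.9 FPKM in iMSN-D2RKO libraries (median 51.8). All 6 iMSN-D2RKO values exceeded all 6 WT values, and the log2 difference was 1.11 ± 0.18. The adjusted p was 0.168 for 12 libraries, 0.0917 without the set-apart library and 0.00819 with library weights. The Nr4a1 promoter is given because the gene is a known target of the cAMP-responsive factor CREB, and the Shisa8 promoter is set beside it as that of another higher gene. Both are RefSeq windows of 300 bases, 250 before and 50 after the start, on GRCm38.p6. Capitals mark CGTCA, or TGACG on the other strand, the short core of the cAMP response element.
Nr4a1 promoter (chr15:101266596-101266895, plus strand): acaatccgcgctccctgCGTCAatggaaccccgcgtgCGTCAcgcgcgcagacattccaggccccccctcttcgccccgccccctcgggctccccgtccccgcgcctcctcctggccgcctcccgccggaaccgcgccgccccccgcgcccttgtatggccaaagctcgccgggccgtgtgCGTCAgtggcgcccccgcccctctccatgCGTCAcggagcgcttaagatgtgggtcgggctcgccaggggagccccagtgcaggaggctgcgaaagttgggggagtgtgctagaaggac
Shisa8 promoter (chr15:82212766-82213065, minus strand): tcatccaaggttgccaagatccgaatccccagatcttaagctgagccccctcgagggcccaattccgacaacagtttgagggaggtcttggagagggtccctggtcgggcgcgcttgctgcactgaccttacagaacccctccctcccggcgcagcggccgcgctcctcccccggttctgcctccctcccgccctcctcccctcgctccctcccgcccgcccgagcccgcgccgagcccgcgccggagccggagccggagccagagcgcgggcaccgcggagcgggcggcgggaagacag
The Nr4a1 window held 4 copies of the core and no copy of the full element TGACGTCA. The Shisa8 window held none. The core was present on either strand in 20.8% of 32851 promoter windows of the same length and the full element in 1.79%. Of the 15 genes, 6 had a window in the table, and only that of Nr4a1 held the core. A match is a run of letters and not a site shown to be used.

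Among the remaining higher genes, Anxa3, a calcium-dependent phospholipid-binding annexin, was at 4.10 to 6.08 FPKM in WT (median 4.90) and at 6.31 to 27.85 FPKM in iMSN-D2RKO libraries (median 11.6). The genotypes did not overlap, and the adjusted p was 0.454 with 12 libraries, 0.18 without the set-apart library and 0.0393 with library weights. Irf8, a transcription factor of myeloid cells including microglia, was at 2.09 to 2.295 FPKM in WT and at 2.83 to 4.53 FPKM in iMSN-D2RKO libraries. Its adjusted p was 0.168 with 12 libraries, 0.0917 without the set-apart library and 0.0318 with library weights. The 12 microglia markers had a median log2 difference of 0.08, or 0.01 without the set-apart library, and none of them passed. Snai3, a zinc finger transcription factor of the Snail family, was at 0.398 to 0.987 FPKM in WT and at 1.39 to 4.32 FPKM in iMSN-D2RKO libraries, also without overlap. Its adjusted p was 0.34, 0.187 and 0.0221 in the same order. Ptp4a3, a protein tyrosine phosphatase, was at 12.6 to 13.9 FPKM in WT and at 16.1 to 35.8 FPKM in iMSN-D2RKO libraries, where all but the set-apart library were at or below 19.7 FPKM, and its adjusted p was 0.666, 0.0917 and 0.0457.

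Fst, Kremen1 and Wnt7a act in activin and Wnt signalling outside the cell. Fst, follistatin, which binds and neutralises activins, was at 1.24, 1.52 and 2.50 FPKM in WT and at 2.26, 3.06 and 4.22 FPKM in iMSN-D2RKO libraries (lowest, median, highest). The ranges overlapped through the set-apart library alone, which held the lowest iMSN-D2RKO value, and the adjusted p was 0.464 with 12 libraries, 0.271 without it and 0.0393 with library weights. Inhba, which encodes the activin A subunit, was at 1.59 to 4.03 FPKM in WT and at 2.69 to 12.6 FPKM in iMSN-D2RKO libraries, with overlap and a log2 difference of 0.82 ± 0.28 (limma, adjusted p = 0.666), or 1.02 ± 0.24 (adjusted p = 0.329) without the set-apart library. Bmp2, a bone morphogenetic protein, was at 1.73 to 2.28 FPKM in WT and at 2.40 to 3.41 FPKM in iMSN-D2RKO libraries without overlap, with log2 differences of 0.27 ± 0.08 and 0.23 ± 0.06 and adjusted p-values of 0.666 and 0.464 with 12 and 11 libraries. Of the 23 genes of activin and follistatin signalling tested, 1 (Fst) passed with library weights and 0 with equal weights. At an unadjusted p below 0.05, 3 were higher and 0 lower, or 5 and 1 without the set-apart library. The shares of all genes higher and lower were 3.36% and 2.25% with 12 libraries, and 4.66% and 3.42% with 11. The median log2 difference was 0.00 with 12 libraries, against 0.02 over all genes, and 0.07 with 11. In the Wnt pathway, Kremen1, a receptor of the Wnt antagonist Dickkopf, was at 5.19 to 7.40 FPKM in WT and at 6.33 to 15.4 FPKM in iMSN-D2RKO libraries, and the set-apart library was the only iMSN-D2RKO value within the WT range. Wnt7a, a Wnt ligand, was at 6.66 to 9.35 FPKM in WT and at 5.15 to 6.82 FPKM in iMSN-D2RKO libraries, which overlapped slightly (log2 difference -0.42 ± 0.09). The adjusted p-values of Kremen1 and Wnt7a were 0.666 and 0.464 with 12 libraries, 0.18 and 0.264 without the set-apart library, and 0.0393 and 0.0483 with library weights.

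The lower genes with library weights were Otof, Wnt7a, C920006O11Rik and Htr2c. C920006O11Rik, a long non-coding RNA of chromosome 9 (78175914 to 78178882), was at 1.91 to 2.80 FPKM in WT (median 2.55) and at 0.716 to 1.71 FPKM in iMSN-D2RKO libraries (median 1.47) without overlap. Its log2 difference was -0.59 ± 0.11 at an adjusted p of 0.322, -0.66 ± 0.09 at 0.0324 without the set-apart library, and -0.60 ± 0.08 at 0.00819 with library weights. Htr2c, a Gq-coupled serotonin receptor, was at 21.8 to 36.4 FPKM in WT and at 7.53 to 24.9 FPKM in iMSN-D2RKO libraries. Its lowest value was that of the set-apart library, the ranges overlapped, and the log2 difference was -0.74 ± 0.19, or -0.56 ± 0.10 without that library. The adjusted p was 0.666 and 0.169 in these fits and 0.0457 with library weights.

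**Figure D2:**
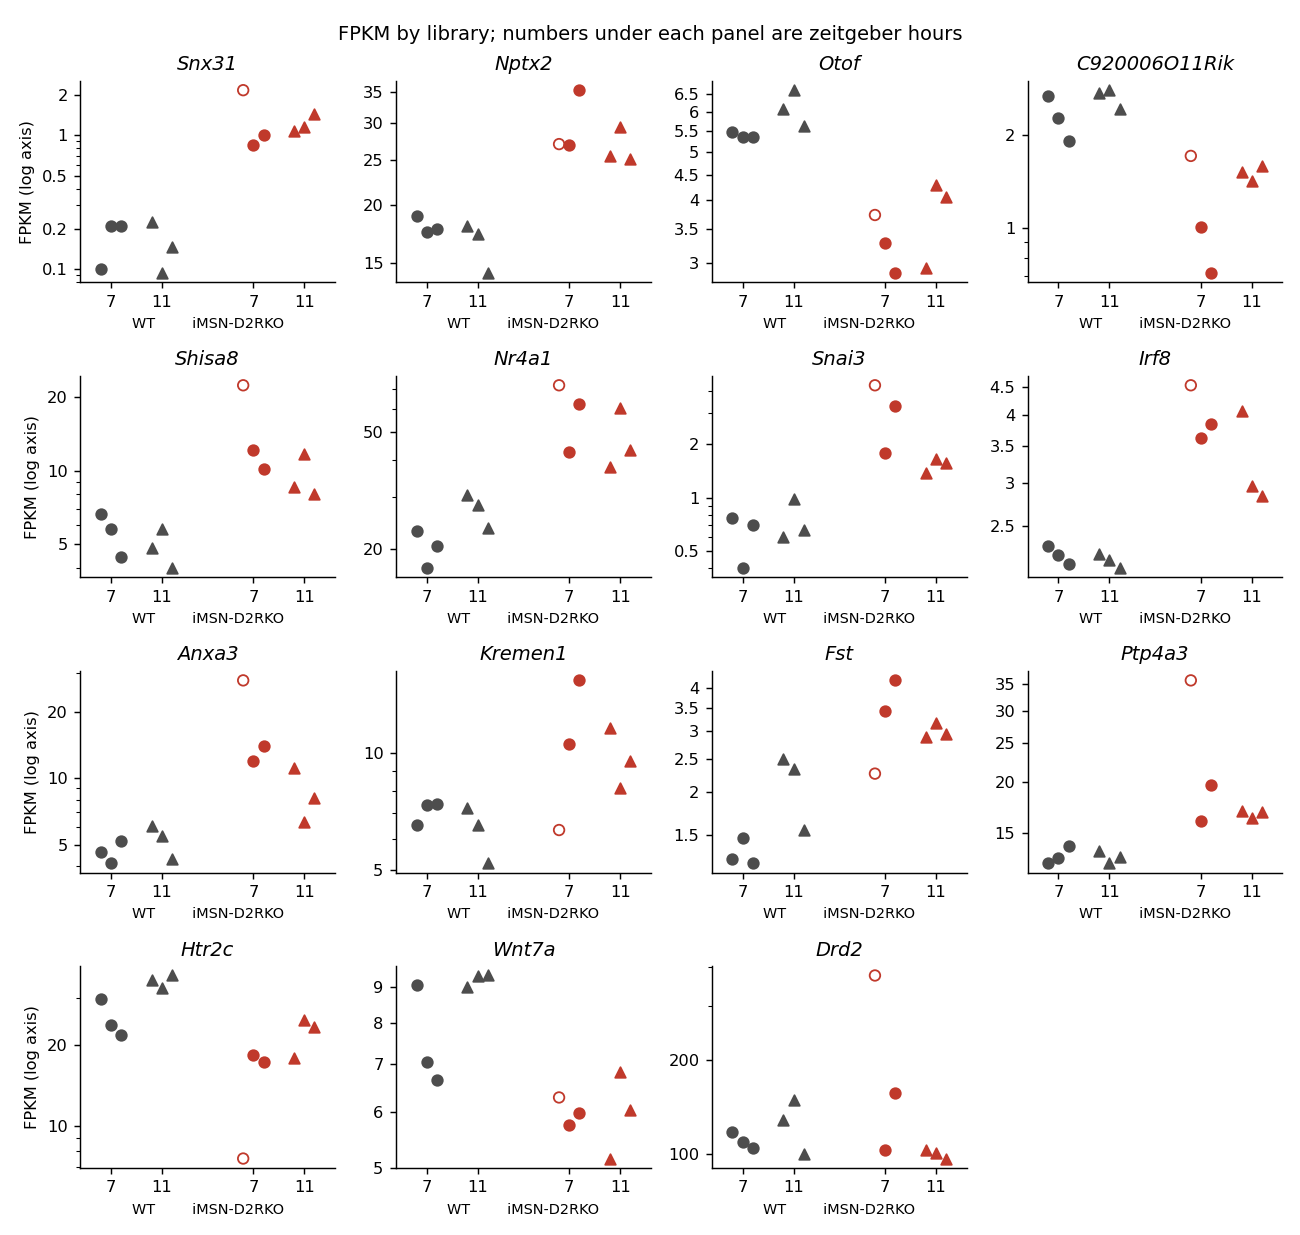
FPKM on a log axis for 14 of the 15 genes that passed with library weights and for Drd2; each point is 1 library, grey for WT and red for iMSN-D2RKO, circles at ZT7 and triangles at ZT11, and the open circle is the set-apart library. Snx31, Nptx2, Otof and C920006O11Rik are separated between genotypes at both time points, while Drd2 overlaps.

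The same 15 genes were then followed in libraries that shared none of the 12. At ZT3, the injection hour, whose 6 libraries carry both treatments in their titles, 13 of the 15 differed in the same direction and 9 of these had an unadjusted p below 0.05. In the 18 saline libraries of the dark hours 12 had the same direction, 7 of them with an unadjusted p below 0.05, and 3 passed the adjusted test. In the 12 cocaine libraries of ZT7 and ZT11 the direction was the same for 11, and 4 had an unadjusted p below 0.05. Over all genes tested in both, the same direction was found for 63.5%, 59.3% and 54.5%. The same direction together with an unadjusted p below 0.05 was found for 695 of 13268, 467 of 13630 and 1005 of 13581 genes. Each comparison on its own called few genes, with 1 of 13366 at ZT3 (0.00748%, Snord17, a small nucleolar RNA), 3 of 13994 in the dark hours (0.0214%) and 0 of 13805 under cocaine (0%, with 1407 at an unadjusted p below 0.05). The 3 genes of the dark hours were Snx31, C920006O11Rik and Fst, with log2 differences of 0.69 ± 0.07, -0.63 ± 0.08 and 0.69 ± 0.09 and adjusted p-values of 0.00033, 0.00225 and 0.00467. Of the 18 dark libraries, 7 had a low correlation with the rest of the series, and without them 8 genes passed, again with Snx31 and C920006O11Rik but without Fst.

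Snx31 kept its sign in all sets, with log2 differences of 0.66 ± 0.20 at ZT3 and 0.50 ± 0.18 under cocaine. Shisa8 differed by 1.13 ± 0.12 at ZT3, 0.79 ± 0.23 in the dark hours and 0.54 ± 0.30 under cocaine. Anxa3 differed by 0.73 ± 0.18, 0.67 ± 0.13 and 0.55 ± 0.13 in the same order. By contrast, Ptp4a3 (0.07, -0.10 and -0.02) and Htr2c (-0.31, 0.03 and 0.03) were close to 0 in the dark hours and under cocaine, where their SEs were 0.13 to 0.21. The estimates of Nptx2 (0.34 ± 0.17, 0.39 ± 0.36 and -0.08 ± 0.29) and Otof (-0.37 ± 0.16, -0.16 ± 0.12 and -0.13 ± 0.16) were smaller than in the saline light hours, and neither gene passed. Light minus dark was 0.28 ± 0.48 for Nptx2 and -0.43 ± 0.18 for Otof. The difference between light and dark hours was not called for any of these genes. No gene passed that test among 14244 (0%, limma; 434 at an unadjusted p below 0.05), the smallest p being that of Olfr287 (an olfactory receptor gene; light minus dark -1.39 ± 0.30, limma adjusted p = 0.816). Signs turned in some sets for Nptx2, Snai3, Ptp4a3, Htr2c, Wnt7a and Nr4a1. Nr4a1 turned most, at -1.22 ± 0.33 at ZT3 against 0.63 ± 0.13 in the dark hours and 0.98 ± 0.20 under cocaine.

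**Figure D3:**
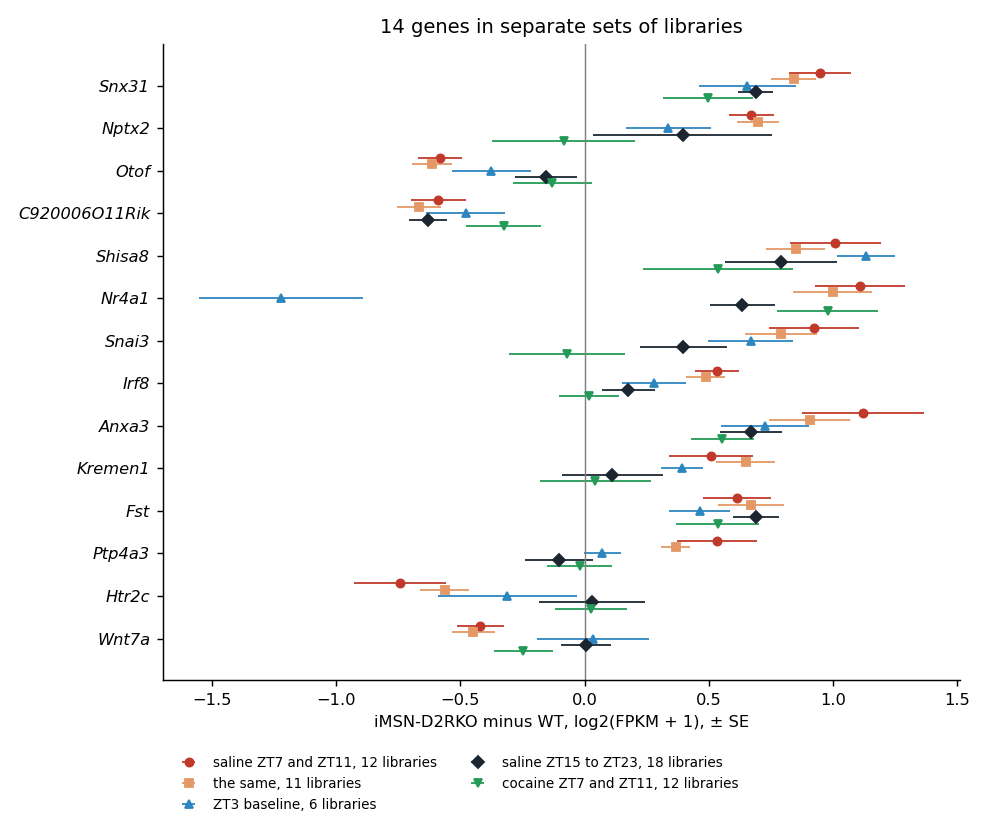
Log2 difference of iMSN-D2RKO minus WT on log2(FPKM + 1), with its SE as bars, for 14 of the 15 genes (rows) in the saline light hours with 12 and 11 libraries and in 3 sets that share none of those libraries. Snx31, C920006O11Rik, Shisa8, Anxa3, Fst, Otof, Irf8 and Kremen1 lie on the same side of 0 in all sets. Irf8 (0.02) and Kremen1 (0.04) lie close to 0 under cocaine, and Nr4a1 lies at -1.22 at ZT3.

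Most activity-induced genes had higher values in libraries labelled iMSN-D2RKO than in WT at ZT7 and ZT11. Of 33 immediate early and activity-induced genes tested, 30 had a positive log2 difference, and the median was 0.32 against 0.02 over all genes. Of the 33, 10 were higher and 0 lower at an unadjusted p below 0.05, where 3.36% and 2.25% of all genes were higher and lower. Without the set-apart library the median was 0.26 and 12 were higher and 0 lower, where 4.66% and 3.42% of all genes were higher and lower at that threshold. The median was 0.29 with median-ratio scaling and 0.26 with quantile normalization. With library weights Nptx2 and Nr4a1 passed, without the set-apart library Nptx2 did, and with equal weights none did. Gadd45b, a stress- and activity-induced regulator of DNA demethylation, was at 9.01 to 11.8 FPKM in WT and at 11.7 to 18.6 FPKM in iMSN-D2RKO libraries, and the ranges overlapped slightly. Jun, a subunit of the AP-1 factor, was at 9.58 to 19.3 FPKM in WT and at 14.3 to 22.6 FPKM in iMSN-D2RKO libraries, and Egr1, a zinc finger factor, at 61.2 to 85.2 and 70.5 to 128 FPKM. Both overlapped between genotypes. Fos, the partner of Jun, ran from 2.41 to 6.09 FPKM in WT and from 1.85 to 10.6 FPKM in iMSN-D2RKO libraries, and Arc, an activity-regulated synaptic gene, from 29.4 to 34.2 and from 25.99 to 62.8 FPKM, with log2 differences of 0.32 ± 0.29 and 0.29 ± 0.18. Gadd45b, Jun, Egr1, Fos, Arc and Dusp14 were picked for the text after their values were seen. Dusp14, a MAP kinase phosphatase outside the list, was at 25.9 to 34.1 FPKM in WT and at 38.7 to 86.95 FPKM in iMSN-D2RKO libraries without overlap.

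At ZT3 the same list pointed the other way. Of its 33 genes, 3 had a positive log2 difference, the median was -0.82, and 0 were higher and 18 lower at an unadjusted p below 0.05, where 3.26% of all genes were lower. Nr4a1 at ZT3 was at 183, 72.7 and 131 FPKM in WT and at 43.0, 46.7 and 66.4 FPKM in iMSN-D2RKO libraries, so WT lay above iMSN-D2RKO at ZT3 and below it at ZT7 and ZT11. The iMSN-D2RKO values of Nr4a1 were much alike at the 3 times, with means of 52.1, 59.0 and 47.2 FPKM, while the WT means were 129, 20.3 and 27.4 FPKM. Arc showed the same order at ZT3, at 82.9 to 173 FPKM in WT and 22.9 to 46.0 FPKM in iMSN-D2RKO libraries, and Fos was at 13.4 to 46.0 and 2.64 to 6.80 FPKM. In a fit of the 18 libraries of ZT3, ZT7 and ZT11, which was added after these values were seen, the genotype difference itself differed between the light hours and ZT3 for 4 of 13978 genes (0.0286%, limma). These were Nr4a1 (light minus ZT3 2.33 ± 0.35, limma adjusted p = 0.0424), Apold1, an early response gene of endothelial cells (1.25), Trib1, a pseudokinase (0.97), and Snord17 (-1.96). In the dark hours 7 of 33 genes of the list were higher and 0 lower at an unadjusted p below 0.05, with a median of 0.12, and under cocaine at ZT7 and ZT11 3 and 0, with a median of 0.15, where 2.37% and 6.42% of all genes were higher.

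**Figure D4:**
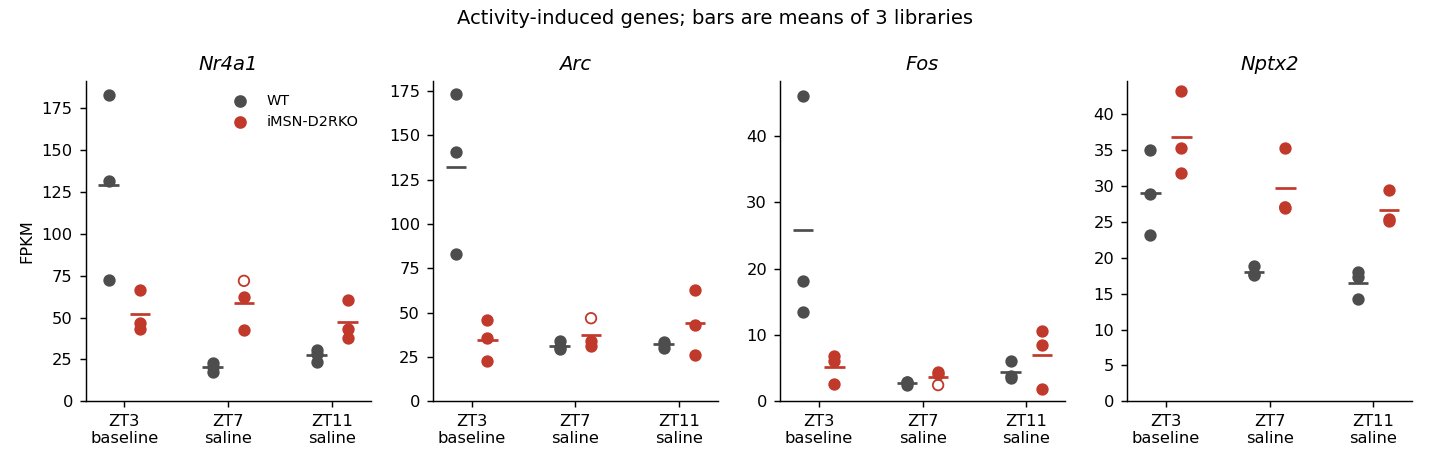
FPKM of 4 activity-induced genes at ZT3 and after saline at ZT7 and ZT11; points are libraries, bars are means of 3, grey is WT, red is iMSN-D2RKO and the open point is the set-apart library. WT values of Nr4a1, Arc and Fos are highest at ZT3, where iMSN-D2RKO values lie below them, and Nr4a1 and Nptx2 of iMSN-D2RKO lie above WT at ZT7 and ZT11.

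Markers of cortical glutamatergic neurons had medians of the same sign as the activity list in some sets and not in others. The median over 8 cortical markers was 0.41 in the light hours (0.54 without the set-apart library), -0.70 at ZT3, -0.30 in the dark hours, where that of the activity list was 0.12, and 0.26 under cocaine. In the light hours they summed to 98.3 to 193 FPKM in WT and to 78.8 to 280 FPKM in iMSN-D2RKO libraries. Of the 8, Emx1, Neurod2 and Neurod6, transcription factors of cortical excitatory neurons, were higher and 0 lower at an unadjusted p below 0.05, or 2 and 0 without the set-apart library. Of all genes 3.36% were higher and 2.25% lower at that threshold, or 4.66% and 3.42% without that library. Neurod6 was at 3.84 to 8.60 FPKM in WT and at 3.35 to 17.4 FPKM in iMSN-D2RKO libraries. The part of cortical tissue in the differences of the activity list, Nptx2 and Nr4a1 included, was not tested. In such bulk tissue, fewer cells of a type and less RNA per cell cannot be told apart.

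Neuropeptide genes of the 2 MSN classes had differences of opposite sign, neither of which passed. Penk, the enkephalin precursor of iMSNs, was at 969 to 1486 FPKM in WT (median 1135) and at 1561 to 9282 FPKM in iMSN-D2RKO libraries (median 1813). All 6 lay above WT, and without the set-apart library, which held the value of 9282, the log2 difference dropped from 1.03 ± 0.37 to 0.65 ± 0.15 (limma, adjusted p = 0.666 and 0.329). The difference of Penk was 0.63 at ZT3, 0.63 in the dark hours and 0.61 under cocaine. Pdyn, the dynorphin precursor of direct-pathway MSNs, was at 48.7 to 94.8 FPKM in WT and at 26.3 to 79.1 FPKM in iMSN-D2RKO libraries, with overlap and a log2 difference of -0.81 ± 0.21 (limma, adjusted p = 0.666), or -0.77 ± 0.21 (0.464) without the set-apart library, and its difference was 0.00 in the dark hours. The medians of Pdyn in WT and iMSN-D2RKO libraries were 81.8 and 75.1 FPKM at ZT3, and 85.2 and 67.7 FPKM under cocaine. The ranges overlapped in both sets. Of 19 neuropeptide genes 5 were higher and 1 lower at an unadjusted p below 0.05, or 3 and 2 without the set-apart library, where 3.36% and 2.25% of all genes were higher and lower with 12 libraries and 4.66% and 3.42% with 11. Grp, gastrin-releasing peptide, was at 0 to 0.464 FPKM in WT and 0.324 to 1.25 FPKM in iMSN-D2RKO libraries.

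The marker lists of both MSN classes had medians close to that of all genes or below it. The median over 10 iMSN markers was -0.11 (-0.09 without the set-apart library), with 1 higher (Penk) and 0 lower at an unadjusted p below 0.05, and over 9 direct-pathway markers 0.01 (-0.01), with 1 higher (Drd1) and 1 lower (Pdyn). Without the set-apart library Tac1, the substance P precursor, was also lower at that threshold (log2 difference -0.29). Of all genes 3.36% were higher and 2.25% lower at that threshold with 12 libraries, and 4.66% and 3.42% without the set-apart library. Adora2a, the adenosine A2a receptor, was at 164 to 247 FPKM in WT and 154 to 248 FPKM in iMSN-D2RKO libraries. Among dopamine receptors, Drd1 was at 70.9 to 106 FPKM in WT and at 95.9 to 133 FPKM in iMSN-D2RKO libraries (log2 difference 0.37 ± 0.12, limma adjusted p = 0.666, or 0.39 ± 0.12 at 0.532 without the set-apart library), and Drd5, the other D1-class receptor, was at 1.42 to 1.896 and 1.47 to 2.08 FPKM. Drd3, the D2-class receptor of the islands of Calleja, was at 1.4 to 3.93 FPKM in WT and at 0 to 2.80 FPKM in iMSN-D2RKO libraries (log2 difference -0.97 ± 0.21, limma adjusted p = 0.454, or -0.85 ± 0.20 at 0.329 without the set-apart library), with overlap. The 5 markers of the islands of Calleja and the NAcc had a median of -0.50. Of the 5, 0 were higher and 3 lower at an unadjusted p below 0.05 (0 and 2 without the set-apart library), where 2.25% of all genes were lower (3.42%). Wfs1 among the 5 was at 83.3 to 192 FPKM in WT and 42.3 to 157 FPKM in iMSN-D2RKO libraries. The 5 markers summed to 504 to 766 FPKM in WT and to 386 to 744 FPKM in iMSN-D2RKO libraries. Their median was -0.16 at ZT3, 0.16 in the dark hours and -0.18 under cocaine. The part that the placement of the punch had in the values of Drd3, Pdyn and Htr2c was not tested.

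No member of the signalling, channel and receptor lists passed with equal weights, and Htr2c alone passed with library weights. Of 39 genes of cAMP and protein kinase A signalling, 2 were higher and 2 lower at an unadjusted p below 0.05, with a median of -0.03. Crem, a cAMP-inducible transcription factor, was at 4.23 to 5.18 FPKM in WT and at 4.74 to 9.83 FPKM in iMSN-D2RKO libraries. Among 64 potassium channel genes 0 were higher and 3 lower, and Kcng1, a modifier subunit of voltage-gated channels, was at 12.1 to 15.5 FPKM in WT and at 7.002 to 11.4 FPKM in iMSN-D2RKO libraries without overlap (log2 difference -0.37 ± 0.10, limma adjusted p = 0.666, or -0.29 ± 0.07 at 0.329 without the set-apart library). Among 14 GABA-A receptor subunits 0 were higher and 1 lower, among 25 glutamate receptor genes 0 and 2, among 28 sodium and calcium channel genes 2 and 0, and among 11 serotonin receptor genes 0 and 3. Without the set-apart library the counts higher and lower were 3 and 2 for cAMP signalling, 1 and 3 for potassium channels, 0 and 0 for GABA-A subunits, 2 and 2 for glutamate receptors, 1 and 0 for sodium and calcium channels, and 0 and 3 for serotonin receptors. Of all genes 3.36% were higher and 2.25% lower at that threshold with 12 libraries, and 4.66% and 3.42% without the set-apart library. The median was -0.19 over the GABA-A subunits, or -0.12 without the set-apart library. Of the 4 opioid receptor genes Oprm1, the mu receptor, was at 2.59 to 6.12 FPKM in WT and at 0 to 2.62 FPKM in iMSN-D2RKO libraries, with slight overlap. Its value of 0 was that of the set-apart library.

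No clock gene and no PPARG target that the study followed passed with equal weights, without the set-apart library or with library weights. Of 20 clock genes 2 were higher and 1 lower at an unadjusted p below 0.05, and the median was -0.08 against 0.02 over all genes. Without the set-apart library 2 were higher and 4 lower, with a median of -0.05 against 0.01 over all genes. At that threshold 3.36% of all genes were higher and 2.25% lower with 12 libraries, and 4.66% and 3.42% without the set-apart library. Arntl (Bmal1), the activator of the clock loop, was at 7.88 to 10.2 FPKM in WT and at 8.35 to 14.99 FPKM in iMSN-D2RKO libraries (log2 difference 0.22 ± 0.10, limma adjusted p = 0.666). The repressors Per1 and Cry1 differed by -0.05 ± 0.10 and -0.04 ± 0.08, and Dbp, a clock output gene, by 0.03 ± 0.26. The sign of Dbp turned with median-ratio scaling and with quantile normalization, and without the set-apart library its difference was -0.25 ± 0.09. Pparg, the lipid-sensing nuclear receptor, was at 0.169 to 0.447 FPKM in WT and 0.291 to 0.634 FPKM in iMSN-D2RKO libraries and did not reach the filter. Its targets Kcnd1, a potassium channel, and Gabrd, a GABA-A subunit, differed by -0.10 ± 0.08 and -0.03 ± 0.18. The set-apart library held the highest Gabrd value, 180.9 FPKM. The remaining iMSN-D2RKO libraries ran from 76.0 to 96.9 FPKM, against 80.6 to 122.7 FPKM in WT. Over Adora2a, Kcnd1 and Gabrd the median difference was -0.10, or -0.16 without the set-apart library.

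The medians of heat-shock and metabolic lists were smaller without the set-apart library. Of 16 heat-shock and cold-inducible genes 14 had a positive difference and the median was 0.18, or 0.11 without that library, against 0.02 and 0.01 over all genes. Hspa1b, an inducible chaperone, was at 0.418 to 0.538 FPKM in WT and at 0.628 to 1.24 FPKM in iMSN-D2RKO libraries without overlap (log2 difference 0.32 ± 0.09, or 0.33 ± 0.10 without that library), and at ZT3 it was at 2.01 to 4.06 FPKM in WT and at 0.268 to 2.05 FPKM in iMSN-D2RKO libraries, the other way round with overlap. Oxidative phosphorylation had a median of 0.14 over 79 genes, which was 0.04 without the set-apart library, and cytosolic ribosomal proteins 0.12 over 75 genes, which was 0.00. With quantile normalization the medians of both lists were slightly below 0 (-0.00495 and -0.00358).

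**Figure D5:**
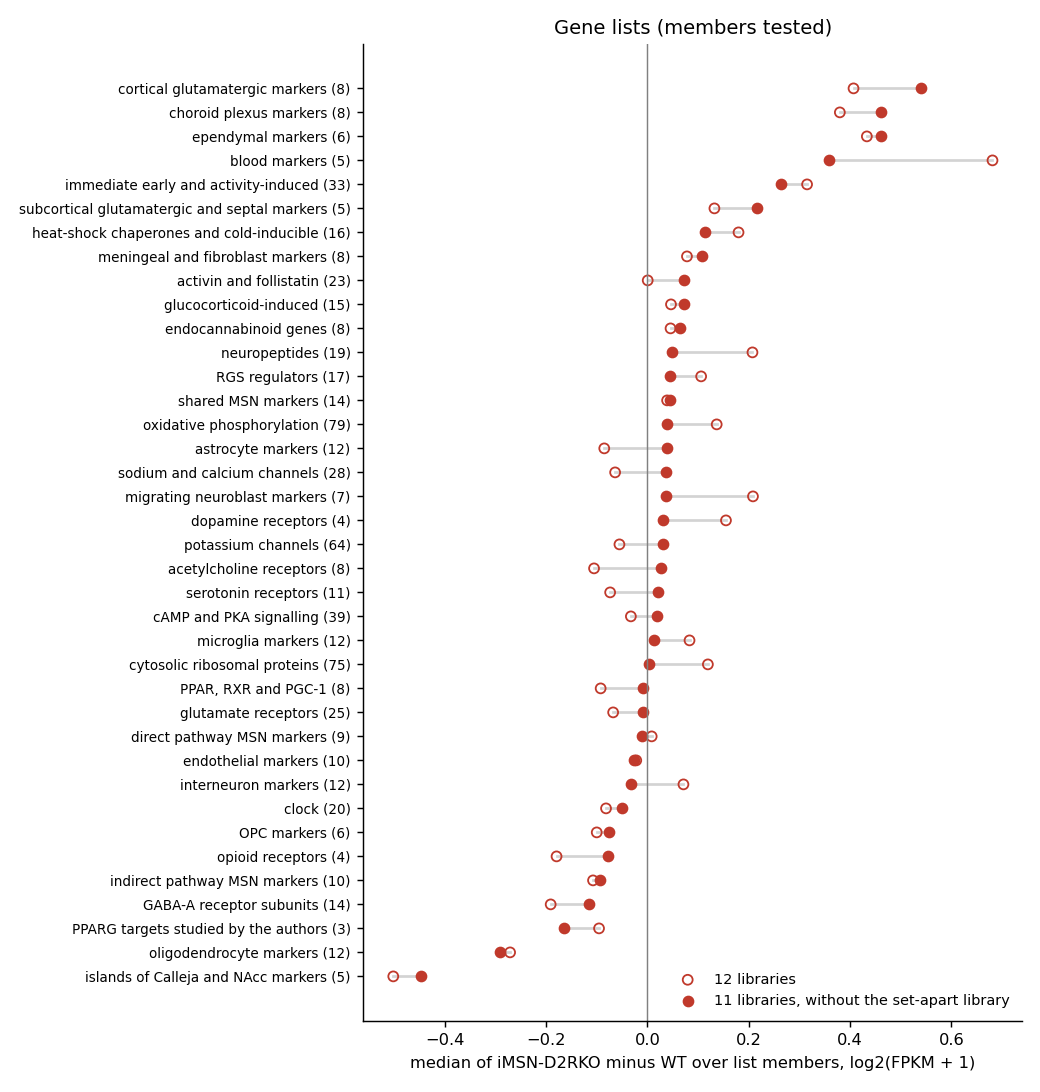
Median log2 difference of iMSN-D2RKO minus WT over the members of 38 gene lists, with the number of members tested in brackets; open points use 12 libraries and filled points leave out the set-apart library. The activity-induced list lies at 0.32 and 0.26, the list of the islands of Calleja and NAcc at -0.50 and -0.45, and most signalling lists lie near 0.

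Markers of other tissues varied between libraries. Choroid plexus markers summed to 5.34 to 10.3 FPKM in WT, and to 1157 FPKM in replicate 1 of iMSN-D2RKO at ZT11 against 6.55 to 13.0 FPKM in the other 5. In that library Ttr, the transthyretin of the choroid plexus, reached 1104 FPKM, while WT libraries of the saline light hours ran from 0 to 0.132 FPKM. At ZT3 Ttr was at 63.3 to 114 FPKM in WT and at 56.1 to 166 FPKM in iMSN-D2RKO libraries. The part of tissue content in the comparisons of ZT3 with the light hours was not tested. Ependymal markers summed to 13.2 to 44.1 FPKM in WT, and to 42.0 to 75.2 FPKM in the 3 iMSN-D2RKO libraries of ZT11. Oligodendrocyte markers had a median of -0.27 over 12 genes. Of the 12, 0 were higher and 2 lower at an unadjusted p below 0.05 (0 and 1 without the set-apart library), where 2.25% of all genes were lower (3.42%). Mog, a myelin glycoprotein, was at 44.5 to 101 FPKM in WT and 31.7 to 68.0 FPKM in iMSN-D2RKO libraries. Astrocyte, endothelial and microglia lists had no member with an unadjusted p below 0.05 over the 12 libraries.

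The genotype difference was also compared between ZT7 and ZT11. No gene passed the test of that difference (0% of 13880, limma), with 888 at an unadjusted p below 0.05. Without the set-apart library 1 passed, Mir3473e, a microRNA gene. The smallest p was that of Mir8091, a microRNA gene listed at 0 in several libraries. At ZT7 and at ZT11 taken singly 0 genes passed (0% each), with 2437 and 278 at an unadjusted p below 0.05. The count at ZT7 was 7 without the set-apart library and 445 without replicate 2 of iMSN-D2RKO at ZT7, so it rested on single libraries. The smallest p at ZT7 was that of Spryd3, which was at 41.5, 39.7 and 45.5 FPKM in WT libraries of ZT7 and at 70.3 FPKM or more in the other 9, so that the WT libraries of ZT7 stood out. At ZT11 it was that of Ak7, an adenylate kinase of motile cilia (log2 difference 1.12 ± 0.21, limma adjusted p = 0.698). Foxj1, the ciliary master regulator, differed by 1.21 at ZT11 and -0.43 at ZT7. Ependymal sums at ZT11 were 23.9, 13.2 and 27.8 FPKM in WT and 68.2, 42.0 and 75.2 FPKM in iMSN-D2RKO libraries. At ZT7 they overlapped, at 17.55, 44.1 and 18.9 FPKM in WT and 23.3, 20.6 and 12.9 FPKM in iMSN-D2RKO libraries. Anxa3 differed by 1.66 at ZT7 and 0.58 at ZT11, and Fst by 0.86 and 0.37, and in the test of ZT7 against ZT11 neither passed.

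Genes near the targeted locus were examined because alleles flanking a floxed site can differ from those of the control strain. Of 13880 tested genes 13269 had a position, and 172 lay within 10 Mb of Drd2. None of the 172 passed with equal weights or with library weights, and their median log2 difference was -0.02. At an unadjusted p below 0.05, 2 were higher and 10 lower (6.98% together), where 3.36% and 2.25% of all genes were higher and lower. Leaving out the set-apart library, 23 of 167 had such a p, against 1107 of 13702 over all genes. The counts with library weights were 28 of 172 and 1537 of 13880.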

How the data were processed

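RNA was sequenced from NAcc of WT and iMSN-D2RKO mice with a stranded, oligo-dT based library kit and single-end reads. The values used are FPKM per gene, which the authors made by aligning reads to mm10 with TopHat and Bowtie2 and by quantifying and scaling with the Cufflinks programs, and then deposited as 1 table of 72 columns; the submitters' processing notes also name CASAVA 1.8.2. The 6 ZT3 libraries stand in identical duplicate columns and were counted once, which leaves 66 libraries. Raw read counts were not used here, so depth was read only in relative terms from the steps between low values, and no counting interval was computed.

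Values were transformed to log2(FPKM + 1) and fitted with limma 3.58.1 in R 4.3.3, with genotype and time point as factors, empirical Bayes moderation with a trend, and Benjamini-Hochberg adjustment over all genes tested. A gene passed at an adjusted p under 0.05. Fold changes on this scale understate those of low genes. Library weights are those of arrayWeights in limma. Drd2 was compared by an exact permutation test within time points. The script was tested on simulated data.

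Named genes were Drd2, genes that the study followed, the 15 genes that passed with library weights, the members of smallest p of each of 39 gene lists, the leading gene of each other test, and genes picked after their values were seen. The values of 1 of the 15 are not reported here. The members and lists were chosen with earlier results of these data known. Of the entries, 355 join several gene symbols. Alternatives were pseudocounts of 0.1 and 0.5, other filters, median-ratio and quantile scaling, library weights, other moderation, a fit of all 66 libraries, replicate blocks, and each library left out in turn.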

Additional observations from a re-analysis of the deposited data

Results flagged for a closer look

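Among 60 groups of 6 values, 13 held a sample far from its neighbours by Dixon's criterion, where chance gives about 1 in 20. In 10 of the 13 the distant sample was replicate 1 of iMSN-D2RKO at ZT7. Its summed FPKM was 690048 and its score on the first principal component 87.86. It also held the distant values of Drd2 (374.6 FPKM), Gabrd (180.9), Dbp (392.2), Penk (9282), Shisa8 (22.26), Anxa3 (27.85) and Ptp4a3 (35.78), and of the summed blood markers (691.2 FPKM). Replicate 1 of iMSN-D2RKO at ZT11 held the distant values of Pparg (0.634 FPKM) and of the summed choroid plexus markers (1157 FPKM). In WT, replicate 3 at ZT11 was distant for Nptx2, at 14.25 FPKM against 17.3 FPKM in the nearest library.

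For 4 genes the genotype difference in the light hours differed from that at ZT3 by a test of the difference itself (limma). These were Nr4a1 (2.329, adjusted p = 0.0424), Apold1 (1.254), Snord17 (-1.957) and Trib1 (0.9746) on the log2 scale. Without the set-apart library the value for Nr4a1 was 2.25 (limma, adjusted p = 0.0382) and 6 genes passed. Snord17 was listed at 0 in most of the 12 saline libraries.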

How the results depend on the processing

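The count of genes that passed between genotypes was 0 with all 12 libraries, 1 with a pseudocount of 0.1 or of 0.5 (Snx31 in both), 3 with no filter on low values, 15 with library weights, 15 in a fit of all 66 libraries (14 higher) and 1 at ZT7 fitted alone. Leaving out each library in turn gave 0 to 5, with 5 without replicate 1 of iMSN-D2RKO at ZT7 and 1 (Snora23) without replicate 2 at ZT11. Filters on the mean, median-ratio and quantile scaling and other moderation gave 0. Members of the lists that passed numbered 0, and 1 with no filter, 4 with library weights, 3 with all 66 libraries and 0 to 1 with a library left out. Near Drd2 the count was 0 to 0 in those fits. The test of ZT7 against ZT11 gave 0, or 2 with library weights, and 0 to 1 with a library left out. The contrast at ZT7 gave 0, or 1 with median-ratio scaling, 13 with library weights, and 0 to 445 with a library left out (445 without replicate 2 of iMSN-D2RKO at ZT7). That at ZT11 gave 0, or 2 with library weights, and 0 to 1. Light against dark hours gave 0, or 339 with library weights, whose estimation warned of non-convergence, 0 to 2 with a replicate number left out, and 5 without the libraries that stand apart. The dark hours gave 3, or 8 without those libraries, an alternative chosen after seeing the data. The cause of these moves was not tested.

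With a replicate block 0 genes passed, by number or by pairs within a time point (779 and 615 at an unadjusted p below 0.05). Same-numbered libraries correlated at -0.151 to 0.254 over 6 pairs, 3 of them above 0.1, so the numbers were not taken to pair the libraries, and 4 correlated best with their own number.

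Some small differences changed sign. The Drd2 level difference was 0.21, and -0.0495 to 0.41 with a library left out, the lowest without replicate 1 of iMSN-D2RKO at ZT7. In the limma fit Drd2 was -0.13 with library weights and -0.30 at ZT11 alone, and -0.0778 to 0.334 with a library left out. Dbp was -0.00199 with median-ratio scaling, -0.16 with quantile scaling, -0.19 with library weights, -0.17 at ZT11 alone and -0.25 to 0.13 with a library left out. Per1 was 0.0525 with library weights, 0.00827 at ZT11 alone and -0.0882 to 0.0324. Gabrd was 0.15 at ZT7 alone and -0.19 to 0.0606. Cry1 was 0.0486 at ZT7 alone and -0.079 to 0.00334. At ZT7 alone Adora2a was 0.0833, Zic2 -0.60 and Foxj1 -0.43. At ZT11 alone Spryd3 was -0.00735 and Mir8091 2.53, and Mir8091 was -1.12 to 0.0198 with a library left out.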
